A study of Mus musculus with 12 samples.

Results

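The macrophage inflammatory protein genes Ccl3, Ccl4, Ccl5, Ccl6 and Ccl9 form a run of CC chemokine genes on mouse chromosome 11. They were taken by their symbols, which gave 5 genes of the 55401 gene identifiers counted by a rule that uses no measured value. All 5 passed the filter on low counts and were tested among 16451 genes.

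CC chemokines are small secreted proteins with a pair of adjacent cysteines near the start of the mature chain, which bind G protein-coupled receptors on leukocytes and direct their migration. CCL3 (MIP-1 alpha) and CCL4 (MIP-1 beta) are made by activated microglia and macrophages, and CCL3 binds CCR1. CCL5 (RANTES) is made mainly by T cells, NK cells and activated myeloid cells and binds CCR1 and CCR3, whereas CCL6 and CCL9 (MIP-1 gamma) are rodent chemokines of myeloid cells that act through CCR1. HDAC3 is a histone deacetylase that works in a complex with the corepressors NCoR1 and SMRT.

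RNA was measured in sorted CD45int CD11b+ microglia of male mice in 4 groups with 3 libraries each, named for genotype and surgery: WT-Sham and WT-tFCI, miKO-Sham and miKO-tFCI. WT mice were CX3CR1 wt/wt:HDAC3 loxp/loxp and HDAC3-miKO mice were CX3CR1 CreER/wt:HDAC3 loxp/loxp, so that both genotypes carried floxed Hdac3 and the miKO mice also had CreER in 1 Cx3cr1 allele, whose promoter drives it. Tamoxifen, which activates CreER, was given at 6 to 8 weeks of age and surgery followed at least 1 month later. Whether WT mice were given tamoxifen is not stated in the sources used here. Transient focal cerebral ischemia (tFCI) was an occlusion of the middle cerebral artery for 60 min, and sham surgery was the same without the occlusion. The cells of WT-tFCI and miKO-tFCI were taken on day 3, and each library combined 3 to 4 hemispheres. The questions were how the genes responded to tFCI in each genotype, how the genotypes differed after each surgery, and whether the response to tFCI depended on the genotype.

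The libraries held 7697864 to 9452222 counts on genes, and replicate 1 of every group was in sequencing batch 1 while replicates 2 and 3 were in batch 2. Hdac3 averaged 41.8 ± 6.02 CPM in WT-Sham and 23.9 ± 2.64 in miKO-Sham, 50.2 ± 5.55 in WT-tFCI and 30.7 ± 4.70 in miKO-tFCI (SD, n = 3, where CPM is the TMM-scaled count at a common library size), and no miKO library reached a WT library of the same surgery. By a chi-square over genes, replicates 1 and 2 of miKO-Sham were the most alike of all replicate pairs (value of 2.82 per degree of freedom, against 3.65 to 76.6), although the labels put them in different batches, and their deposited names carry the same sample code, whereas in the other 3 groups replicates 2 and 3 were the closest pair. By the correlation of log2 CPM the miKO-Sham pair (0.9758) was the closest of its group but ranked below replicates 2 and 3 of WT-Sham (0.9809) and of WT-tFCI (0.9796). They differed by more than sampling noise, which does not show that they come from different cells or animals. They were kept as separate libraries, and the tests that use miKO-Sham were repeated without either and with both summed to 1 library. Replicate 1 of miKO-tFCI stood apart from the other libraries of its group (54.9 and 76.6). In RNA of a sorted population, fewer cells of a type and less RNA per cell cannot be told apart.

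The genes span 138.9 kb of chromosome 11 (GRCm38). From the start of the span they are Ccl5 (ENSMUSG00000035042.2, 83525778 to 83530518, minus strand), Ccl9 (ENSMUSG00000019122.8, 83572919 to 83578636, minus strand), Ccl6 (ENSMUSG00000018927.3, 83587882 to 83593087, minus strand), Ccl3 (ENSMUSG00000000982.5, 83647844 to 83649355, minus strand) and Ccl4 (ENSMUSG00000018930.3, 83662584 to 83664683, plus strand). Ccl9 and Ccl6 are the closest neighbours, 9.2 kb apart, and 13.2 kb separate Ccl3 from Ccl4. Ccl3 has 92 codons in 3 coding exons, Ccl4 has 92 in 3 and Ccl5 has 91 in 3, whereas Ccl6 has 116 in 4 and Ccl9 has 122 in 4. Their coding sequences around the cysteine pair are shown because they set out both the family's shared motif and how far the members' letters differ, on which the separate counting of their reads rests. Each run is 54 bases of 1 coding exon in GRCm38, read 5′ to 3′, and the capitals mark the codons of the 2 adjacent cysteines.
Ccl3 (chr11:83648622-83648675, - strand): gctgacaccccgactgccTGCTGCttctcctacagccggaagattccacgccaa
Ccl4 (chr11:83663464-83663517, + strand): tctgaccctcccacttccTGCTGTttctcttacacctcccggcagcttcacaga
Ccl5 (chr11:83529212-83529265, - strand): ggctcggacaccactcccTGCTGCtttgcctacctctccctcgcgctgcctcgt
Ccl6 (chr11:83589356-83589409, - strand): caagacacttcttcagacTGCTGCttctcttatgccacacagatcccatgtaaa
Ccl9 (chr11:83575896-83575949, - strand): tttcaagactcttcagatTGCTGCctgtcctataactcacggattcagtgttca
The cysteine pair follows 33 codons in Ccl3 and in Ccl4, 32 in Ccl5, 49 in Ccl6 and 56 in Ccl9. The longest run of bases that a pair of the spliced transcripts shares was 25, between Ccl6 and Ccl9, and it was 9 to 13 for every other pair, so that with reads of 150 bases no pair is identical over a read. No exon of another annotated gene overlapped an exon of the 5 genes.

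Ccl6 and Ccl9 are neighbours on the same strand whose levels parted in miKO-Sham, and the 250 bases before their annotated starts are therefore shown, from the RefSeq promoter table of GRCm38.p6, which held 3 of the 5 genes (Ccl3, Ccl6 and Ccl9; Ccl4 and Ccl5 were not matched).
Ccl6 (chr11:83593088-83593337, - strand): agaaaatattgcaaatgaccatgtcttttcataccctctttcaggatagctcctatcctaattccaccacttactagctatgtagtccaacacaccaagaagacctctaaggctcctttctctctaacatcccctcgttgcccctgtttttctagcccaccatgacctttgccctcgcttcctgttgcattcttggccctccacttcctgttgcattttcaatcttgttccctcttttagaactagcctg
Ccl9 (chr11:83578637-83578886, - strand): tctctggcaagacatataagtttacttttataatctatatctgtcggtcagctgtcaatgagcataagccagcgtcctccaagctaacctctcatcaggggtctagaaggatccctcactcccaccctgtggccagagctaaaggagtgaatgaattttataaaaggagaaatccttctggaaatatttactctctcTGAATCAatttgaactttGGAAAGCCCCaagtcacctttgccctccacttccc
Capitals mark, in Ccl9, a match to the AP-1 letters TGANTCA that begins 53 bases before the start and a match on the opposite strand to an NF-kB consensus that begins 35 bases before it. Over both strands of all 32817 promoters of the table (300 bases, of which 50 lie after the start), 7.81% held the first and 5.56% the second. The same search found neither in the window of Ccl6 or Ccl3, and no window of the 3 held the ISRE motif (3.43% of promoters) or the C/EBP letters TTGCNNAA (10.8%). Ccl3 held the PU.1 letters GAGGAA, on the opposite strand 33 bases before its start, which 28.3% of promoters hold. These matches describe letters and were not tested as binding sites.

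**Figure D1:**
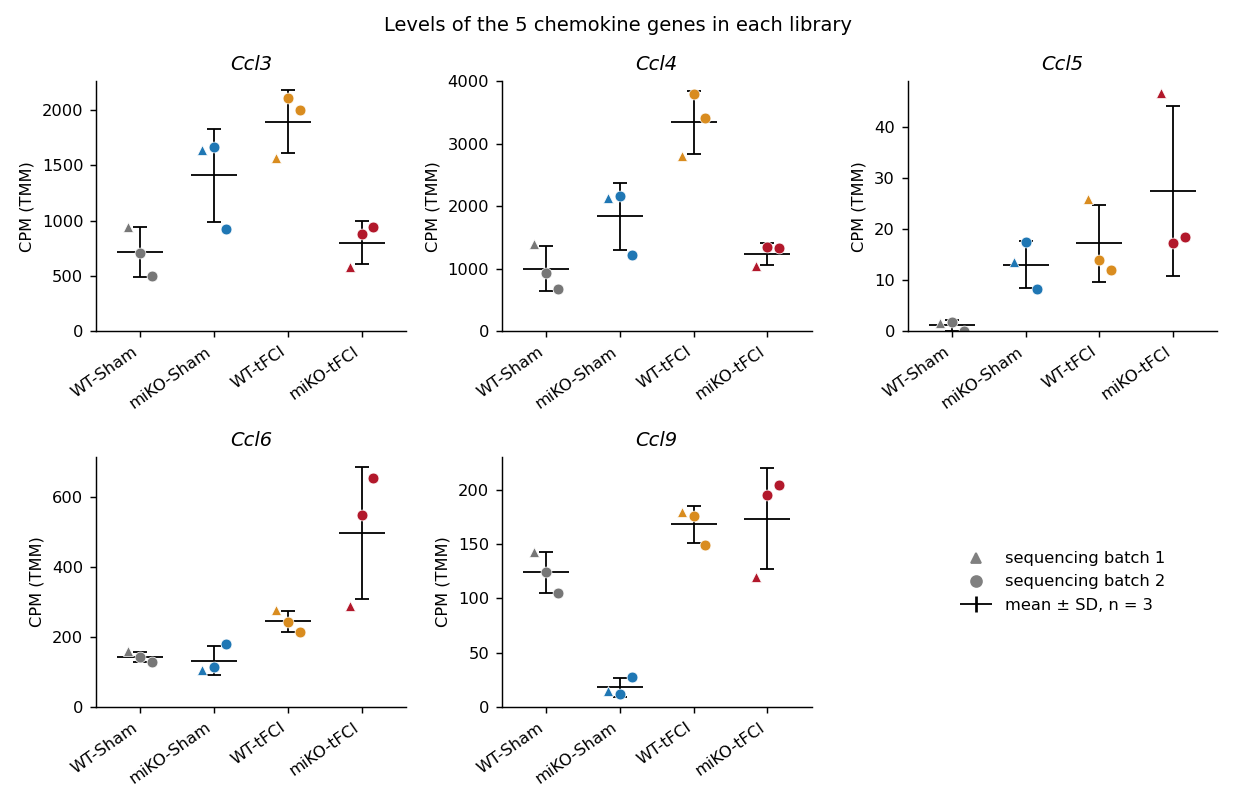
Levels of Ccl3, Ccl4, Ccl5, Ccl6 and Ccl9 in CPM with TMM scaling on linear axes from 0, each point 1 library (triangles batch 1, circles batch 2), with the mean and SD of 3 libraries as a bar. Ccl3 and Ccl4 are highest in WT-tFCI, Ccl9 is lowest in miKO-Sham (11.7 to 28.1 CPM), and Ccl6 is highest in miKO-tFCI (288 to 653 CPM).

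After tFCI in WT, 4 of the 5 genes rose and Ccl9 was not called, where 32.6% of all genes tested were called and 20.9% were called higher. The threshold was an adjusted p under 0.05 in edgeR's quasi-likelihood test, after Benjamini-Hochberg, together with an absolute log2 fold change above 0.58. In miKO, 2 rose and 1 fell after tFCI (35.8% of all genes called, 21.9% higher and 13.9% lower). Without ischemia, 3 genes were higher and 1 was lower in miKO-Sham than in WT-Sham (15.4% called, 8.58% higher and 6.80% lower). Without miKO-Sham replicate 1 or 2, or with these summed, 2 to 3 rose and 0 fell after tFCI in miKO. In the same settings 1 was higher and 1 lower in miKO-Sham than in WT-Sham. After tFCI, 1 was higher and 2 were lower in miKO than in WT (8.79% called, 4.08% higher and 4.71% lower). The response to tFCI differed between the genotypes for 4 genes, 1 towards higher and 3 towards lower in miKO (3.82% of all genes at an adjusted p under 0.05, 1.25% and 2.57%). The groups did not overlap for all 5 genes with tFCI in WT, each higher (49.8% of all genes tested, 26.9% higher and 22.9% lower). They did not overlap for Ccl6 and Ccl9 with tFCI in miKO, both higher (48.2%, 26.5% and 21.6%), for Ccl5 (higher) and Ccl9 (lower) in miKO-Sham vs. WT-Sham (33.2%, 17% and 16.2%), and for Ccl6 (higher), Ccl3 and Ccl4 (both lower) in miKO-tFCI vs. WT-tFCI (22.9%, 9.58% and 13.3%). These comparisons share groups, so their counts are not independent of each other.

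Ccl3, a chemoattractant of monocytes and other leukocytes, rose with ischemia in WT and not in miKO. Its level was 946, 709 and 498 CPM in WT-Sham replicates 1 to 3 and 1570, 2110 and 2000 in WT-tFCI. In miKO-Sham it was 1638, 1664 and 927 CPM, and in miKO-tFCI 579, 876 and 945. All WT-tFCI libraries lay above all WT-Sham libraries and above all miKO-tFCI libraries, while miKO-Sham reached down into the range of WT-Sham and of miKO-tFCI. The log2 fold change with tFCI in WT was 1.40 (SE 0.271, 2.64-fold, adjusted p = 0.000977 in edgeR), with 0.73 in batch 1 and 1.79 in batch 2. With tFCI in miKO it fell by 0.82 (SE 0.268, edgeR adjusted p = 0.0238). This call was lost without miKO-Sham replicate 1 (-0.67), miKO-Sham replicate 2 (-0.65) or miKO-tFCI replicate 1 (-0.59), with the first pair summed (-0.68 and -0.69 with the sum placed in batch 1 and in batch 2) and in batch 2 alone (-0.53). The genotypes differed in opposite directions under the 2 surgeries. The log2 difference was 0.97 in miKO-Sham vs. WT-Sham (SE 0.267, 1.97-fold, edgeR adjusted p = 0.0194) and -1.24 in miKO-tFCI vs. WT-tFCI (SE 0.268, 2.37-fold lower, edgeR adjusted p = 0.00968). The difference in sham animals was no longer called without WT-Sham replicate 2 (0.95) or 3 (0.73), without miKO-Sham replicate 1 (0.81) or 2 (0.83), or with these summed (0.85 and 0.83), whereas the difference after tFCI was called in all alternatives, with adjusted p from 2.64e-15 to 0.0489.

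Ccl4, which like CCL3 attracts monocytes and T cells, followed Ccl3 at higher levels. It was measured at 1397, 935 and 684 CPM in WT-Sham, 2137, 2168 and 1227 in miKO-Sham, 2807, 3804 and 3415 in WT-tFCI, and 1039, 1355 and 1334 in miKO-tFCI. The lowest WT-tFCI library thus lay above every library of the other 3 groups. Ischemia in WT raised Ccl4 by 1.76 on the log2 scale (SE 0.264, 3.38-fold, edgeR adjusted p = 0.000128). In miKO the change was -0.56 (95% interval -1.10 to -0.01, edgeR adjusted p = 0.0934) and was not called. It passed the threshold without WT-Sham replicate 1 (-0.62), without miKO-Sham replicate 3 (-0.79) and with no filter on low counts (-0.59), and was -0.46 and -0.37 without miKO-Sham replicates 1 and 2. After tFCI the level was 2.69-fold lower in miKO than in WT (log2 -1.43, SE 0.259, edgeR adjusted p = 0.00325), with -1.43 in batch 1 and -1.42 in batch 2, and the call held in all alternatives (adjusted p 1.50e-20 to 0.022). Between the sham groups it was 1.85-fold higher in miKO (log2 0.88, SE 0.257, edgeR adjusted p = 0.0261), a call that was lost without WT-Sham replicate 2 (0.83) or 3 (0.65), without miKO-Sham replicate 1 (0.78) or 2 (0.71), with these summed (0.74 and 0.79) and with no batch term (0.88).

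Ccl5 was close to absent in WT-Sham, with 14, 16 and 0 counts (1.68, 1.79 and 0 CPM), and was found in all libraries of the other groups. It was at 13.5, 17.5 and 8.20 CPM in miKO-Sham, 25.9, 13.9 and 11.9 in WT-tFCI, and 46.6, 17.3 and 18.4 in miKO-tFCI. Every library of these 3 groups lay above every WT-Sham library, and their ranges overlapped each other. The log2 fold change was 3.89 with tFCI in WT (SE 0.532, edgeR adjusted p = 5.48e-05) and 3.59 in miKO-Sham vs. WT-Sham (SE 0.539, edgeR adjusted p = 0.000259), and both rest on the few counts of WT-Sham. Both were called in all alternatives that kept Ccl5, including those without miKO-Sham replicate 1 or 2 and with these summed. In miKO, tFCI changed it by 0.92 (95% interval 0.04 to 1.79, edgeR adjusted p = 0.0857), which was called without miKO-Sham replicate 2 (1.42), without WT-Sham replicate 3 (0.91) and with miKO-Sham replicates 1 and 2 summed into batch 1 (1.31), and was 0.61 without miKO-tFCI replicate 1 and 0.56 without miKO-Sham replicate 1. In miKO-tFCI vs. WT-tFCI the difference was 0.62 (95% interval -0.23 to 1.47, edgeR adjusted p = 0.347) and 0.31 without miKO-tFCI replicate 1. The libraries with the most Ccl5, replicate 1 of miKO-tFCI and of WT-tFCI, were also the highest in the summed markers of T and NK cells (16.2 and 8.62 CPM, against 2.05 to 7.91 in the other 10 libraries) and of dendritic cells (456.9 and 140.6 CPM, against 9.41 to 79.1). Of 12 T and NK markers 3 passed the filter and Ncr1 had no count in any library. The part of these cells in the level of Ccl5 was not tested.

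Ccl6 had its highest levels in miKO-tFCI, where all 3 libraries lay above the other 9. The WT-Sham libraries gave 159, 142 and 129 CPM and the miKO-Sham libraries 104, 113 and 180. After tFCI they gave 276, 242 and 215 CPM in WT and 288, 547 and 653 in miKO. The sham groups overlapped (log2 difference -0.14, 95% interval -0.67 to 0.39), and the tFCI groups lay above them without overlap. The rise with tFCI was 1.71-fold in WT (log2 0.77, SE 0.248, edgeR adjusted p = 0.0232) and 3.70-fold in miKO (log2 1.89, SE 0.254, edgeR adjusted p = 4.81e-05), and the latter was called in all alternatives. The rise in WT was not called without WT-Sham replicate 2 (0.66) or 3 (0.61) or WT-tFCI replicate 1 (0.51) or 2 (0.76). In miKO-tFCI vs. WT-tFCI it was 1.97-fold higher (log2 0.98, SE 0.25, edgeR adjusted p = 0.0225). Within batch 2 the difference was 1.39, and within batch 1, where the libraries gave 288 and 276 CPM, it was 0.06. Its call was lost without WT-tFCI replicate 2 (0.93) or 3 (0.84), without miKO-tFCI replicate 2 (0.94) or 3 (0.77), and with no batch term (1.02).

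Ccl9 was the one gene of the 5 that was lower in miKO-Sham than in WT-Sham, and after tFCI it did not differ beyond the spread of the libraries. Levels in WT-Sham were 143, 124 and 105 CPM, and those in miKO-Sham were 14.4, 11.7 and 28.1. In WT-tFCI the libraries gave 179, 176 and 149 CPM, and in miKO-tFCI 120, 195 and 204. The miKO-Sham libraries were the lowest 3 of the 12, and the tFCI groups overlapped. Ccl9 was 6.91-fold lower in miKO-Sham than in WT-Sham (log2 -2.79, SE 0.281, edgeR adjusted p = 7.59e-06) and rose 9.51-fold with tFCI in miKO (log2 3.25, SE 0.284, edgeR adjusted p = 1e-06). Both calls held in all alternatives, and without either of miKO-Sham replicates 1 and 2 or with them summed. In WT the change with tFCI was 0.44 (95% interval -0.10 to 0.97, edgeR adjusted p = 0.189) and was not called, although the groups did not overlap. Between miKO-tFCI and WT-tFCI the difference was 0.03 (95% interval -0.51 to 0.57), with -0.58 in batch 1 and 0.31 in batch 2, and its sign changed with the library left out.

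**Figure D2:**
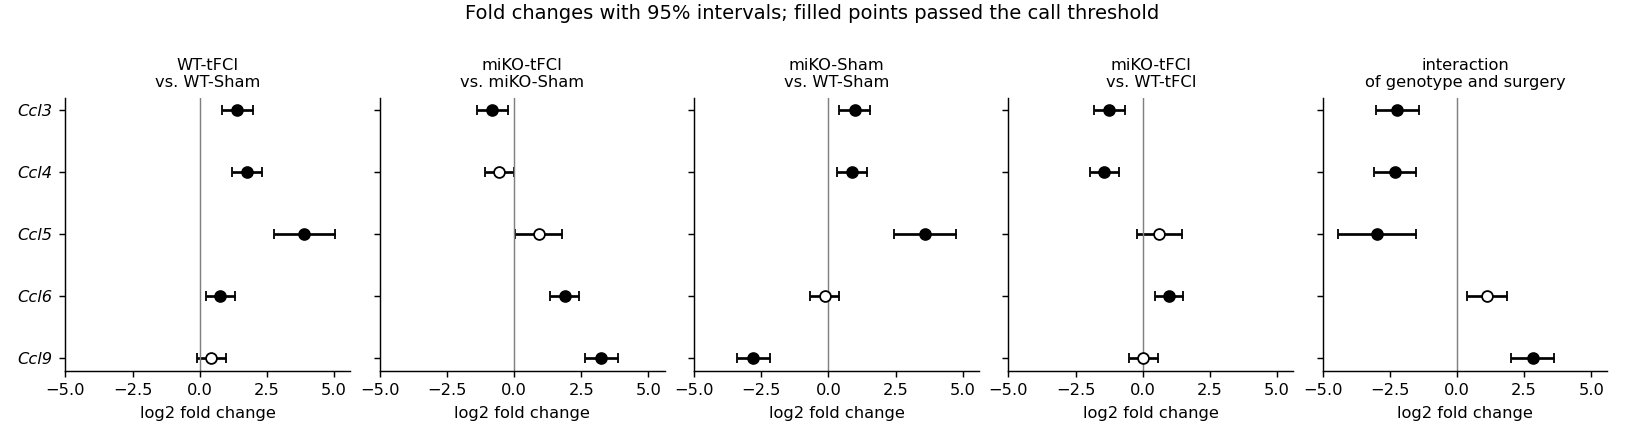
Log2 fold changes (x axis) of the 5 genes from edgeR with 95% intervals in 4 comparisons and in the interaction of genotype and surgery, where filled points passed the threshold and open points did not. Ccl3 and Ccl4 lie on opposite sides of 0 in miKO-Sham vs. WT-Sham and in miKO-tFCI vs. WT-tFCI, and Ccl9 lies at -2.79 in the first and 0.03 in the second.

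The difference in response was tested itself, as the change with tFCI in miKO minus that in WT. It was -2.22 for Ccl3 (SE 0.378, edgeR adjusted p = 0.00443) and -2.31 for Ccl4 (SE 0.364, adjusted p = 0.00262 in edgeR). Both were called in all alternatives, with values of -2.23 and -2.05 in batch 1 and -2.24 and -2.45 in batch 2. For Ccl9 it was 2.81 (SE 0.373, edgeR adjusted p = 0.000729), again called in all alternatives, with 2.71 in batch 1 and 2.94 in batch 2. For Ccl5 it was -2.97 (SE 0.68, edgeR adjusted p = 0.0247), and this call was lost without any 1 of the 3 WT-tFCI libraries (-2.93, -2.92 and -3.01), without miKO-tFCI replicate 2 (-2.85) or 3 (-2.86), with DESeq2 (-2.97) and with no batch term (-2.83). For Ccl6 it was 1.12 (95% interval 0.37 to 1.86, edgeR adjusted p = 0.102), and it was called without miKO-Sham replicate 3 (1.37) or miKO-tFCI replicate 1 (1.40).

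Set per kb of exon, the family's RNA was mostly that of Ccl3 and Ccl4. Together they made up 94.1% to 96.1% of the summed CPM per kb of the 5 genes in WT-Sham, 96.3% to 98.6% in miKO-Sham and 96.3% to 97.7% in WT-tFCI, and 87.9% to 90.4% in miKO-tFCI, where all 3 libraries lay below those of the other groups. Ccl6 made up 8.19 ± 1.82% in miKO-tFCI and 1.80 ± 0.478% in WT-tFCI, and Ccl5 0.968 ± 0.791% and 0.244 ± 0.145% (SD, n = 3). The summed CPM per kb was 2582 ± 855 in WT-Sham, 4727 ± 1336 in miKO-Sham, 7744 ± 1109 in WT-tFCI and 3289 ± 618 in miKO-tFCI (SD, n = 3).

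Per kb, Ccl4 stood at 1.61 ± 0.0929 times Ccl3 in WT-Sham, 1.52 ± 0.0130 in miKO-Sham, 2.05 ± 0.0598 in WT-tFCI and 1.84 ± 0.225 in miKO-tFCI (SD, n = 3). Every tFCI library of WT lay above every sham library in this ratio, while miKO-tFCI lay above miKO-Sham and overlapped both WT groups. Ccl9 stood at 0.508 ± 0.0275 of Ccl6 in WT-Sham, 0.406 ± 0.0228 in WT-tFCI, 0.213 ± 0.0303 in miKO-tFCI and 0.0780 ± 0.0159 in miKO-Sham, and no 2 groups overlapped. The ratio of Ccl9 to Ccl6 was thus lower in miKO than in WT under both surgeries, although the level of Ccl9 after tFCI overlapped between the genotypes. With 3 libraries against 3, an exact permutation test of a ratio cannot give a two-sided p under 0.1, so the ratios are given without a test.

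**Figure D3:**
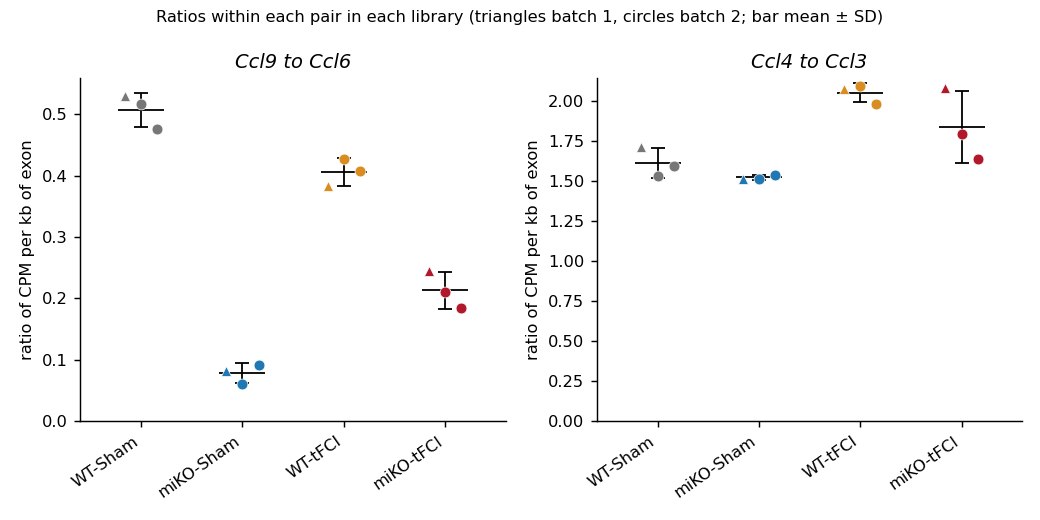
Ratio of Ccl9 to Ccl6 (left) and of Ccl4 to Ccl3 (right) in CPM per kb of exon in each library, triangles batch 1 and circles batch 2, with mean and SD of 3 libraries and axes from 0. The ratio of Ccl9 to Ccl6 takes a separate range in each of the 4 groups, while that of Ccl4 to Ccl3 stays between 1.51 and 2.09.

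Across the 12 libraries, which share group, batch and scaling, Pearson's r of log2 CPM was 0.97 between Ccl3 and Ccl4 and 0.67 between Ccl6 and Ccl9, and -0.22 between Ccl3 and Ccl9. These values describe the libraries, and their points are 4 groups rather than 12 independent samples. Among 11219 genes with at least 5 CPM on average, and leaving out the 5 genes themselves, the 3 with the pattern closest to Ccl3 were Nfkbid (r = 0.979), a nuclear inhibitor of NF-kB, Ly86 (0.954), the MD-1 partner of the receptor RP105, and Arl11 (0.943). The same 3 genes were closest to Ccl4, again with the 5 left out, led by Ly86 (0.952). Nfkbid averaged 158.9 CPM in WT-Sham, 278.4 in miKO-Sham, 340.3 in WT-tFCI and 190.2 in miKO-tFCI. The order of these group means is that of Ccl3, for likeness to which Nfkbid was picked, so it is no separate evidence. For Ccl6 the closest was Ccr1 (0.955), the gene of its own receptor, followed by Dnajc3 (0.954) and Ms4a4a (0.950). For Ccl9 they were Prim2 (0.984), Sh3bp5 (0.975) and Nrp1 (0.969), and for Ccl5 Ethe1 (0.956), Tmem205 (0.955) and Rab5if (0.951).

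Among the receptors of these chemokines, Ccr1 was at its highest in miKO-tFCI, above every library of the other 3 groups. The 9 receptor genes reported here include receptors of other CC chemokines, and 5 of the 9 passed the filter. In miKO-tFCI vs. WT-tFCI 3 of them were higher, Ccr2 (2.16), Ackr1 (1.87) and Ccr1, and 2 were not called. Ccr2, the receptor of CCL2 and CCL7, stands also among the monocyte and macrophage markers and was counted in each list. Ccr1, the receptor shared by CCL3, CCL5, CCL6 and CCL9, was at 15.0, 20.1 and 20.4 CPM in WT-Sham, 10.97, 5.83 and 26 in miKO-Sham, 35.2, 33.6 and 30.5 in WT-tFCI, and 69.0, 115.9 and 182.2 in miKO-tFCI. It was higher in miKO-tFCI than in WT-tFCI by 1.81 (SE 0.355, 3.50-fold, edgeR adjusted p = 0.0054), with 0.97 in batch 1 and 2.18 in batch 2. The response to tFCI differed between the genotypes for Ccr1 (2.18, SE 0.518, edgeR adjusted p = 0.0302), a call that was lost without miKO-Sham replicate 1 (2.16, edgeR adjusted p = 0.0627) and held without replicate 2 (1.74) and with both summed (1.89 and 2.10). Ccr3, another receptor of CCL5, averaged 0.388 to 2.202 CPM over the groups and was called in no comparison, and the decoy receptor Ackr2 was under the filter.

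**Figure D4:**
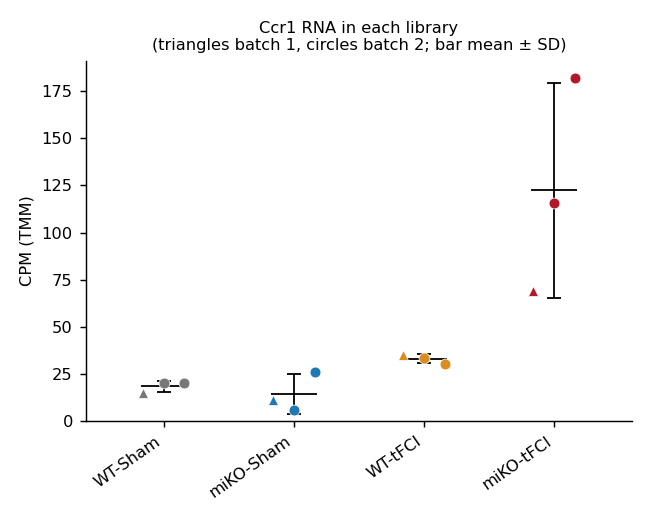
Levels of Ccr1 in CPM with TMM scaling in each library, triangles batch 1 and circles batch 2, with mean and SD of 3 libraries and an axis from 0. Ccr1 is highest in the 3 miKO-tFCI libraries (69.0 to 182.2 CPM).

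Ccl3 and Ccl4 differed in direction from the other CC ligands that were called between the tFCI groups, apart from Ccl12. Of 15 other CC ligand genes 9 were tested, and in miKO-tFCI vs. WT-tFCI 4 were higher (Ccl7 by 2.72, Ccl22 by 1.96, Ccl24 by 1.30 and Ccl2 by 1.17 on the log2 scale) and 1 was lower (Ccl12, -0.68), with a median of 1.17 against 0.042 over all genes tested. Between the sham groups 3 were higher in miKO (Ccl7 by 2.34, Ccl2 by 1.91 and Ccl24 by 1.67) and the other 6 were not called. These 3 were called also without miKO-Sham replicate 1 or 2 and with them summed, with 1.38 for Ccl24 at the lowest.

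Of 23 genes known to switch on Ccl3 and Ccl4 transcription or to act as their cofactors, all tested, 8 were lower and the other 15 not called in miKO-tFCI vs. WT-tFCI (median -0.39, against 0.042 over all genes), among them Egr1 (-1.21), Jun (-0.97), Atf3 (-0.89) and the NF-kB subunit gene Nfkb1 (-0.72), and Hdac3 itself (-0.71). Between the sham groups, where Ccl3 and Ccl4 were higher in miKO, 2 were higher and 4 lower, with Cebpa at 1.03 and Egr1 at -1.36. Without miKO-Sham replicate 1 they were 1 and 6, and without replicate 2 they were 3 and 4, and Cebpa was no longer called without replicate 1 (0.907) or with the sum in batch 2 (0.937). With tFCI in WT, where Ccl3 and Ccl4 rose, 3 were higher and 6 lower, with Irf7 at 2.82 and Jun at -1.82. Immediate early genes, which also respond to tissue dissociation, had summed levels of 50270 to 54790 CPM in WT-Sham and 34640 to 35990 in miKO-Sham. The sums were 22670 to 26320 CPM in WT-tFCI and 12010 to 16090 in miKO-tFCI. Of 23 such genes, 15 were lower and the other 8 not called in miKO-tFCI vs. WT-tFCI. Among the lower were the NF-kB targets Nfkbia (-1.01) and Nfkbiz (-1.23). The lower ones also include Jun, Junb, Atf3 and Egr1, which stand in both lists and were counted in each. Fos stands in both lists too and was not called. With tFCI in WT, 3 were higher (Nr4a1 by 1.79, Nfkbiz by 0.83 and Ier3 by 0.72) and 14 lower. The part of dissociation in the levels of Ccl3 and Ccl4 was not tested.

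Downstream of the receptors, of 32 signalling genes 6 were lower and the other 26 not called in miKO-tFCI vs. WT-tFCI (median -0.14), led by Plcb2 (-1.58), a phospholipase C, and Arrb1 (-1.08), an arrestin that uncouples receptors. Between the sham groups 3 were higher and 6 lower in miKO, with Plcb2 at -1.80 and Arrb1 at -1.28. Without miKO-Sham replicate 1 they were 2 and 5. Of 8 genes for storage or extracellular binding of chemokines, 7 rose with tFCI in WT (median 3.38, against 0.022 over all genes). Between the tFCI groups 3 were higher in miKO, Mmp12 (3.73), Cd44 (1.76) and Sdc2 (1.53), of which MMP12 is an elastase of macrophages that can cut chemokines. Between the sham groups 4 were higher in miKO (3 without miKO-Sham replicate 1 or 2), among them Mmp12 (4.18) and Cd44 (3.86). These averaged only 0.388 and 0.887 CPM in WT-Sham.

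Some markers of other cells were higher in miKO-tFCI than in WT-tFCI, as were Ccl6 and Ccr1. The summed level of 10 monocyte and macrophage markers was 42.6 to 108.8 CPM in WT-Sham, 70.8 to 206.7 in miKO-Sham, 435.0 to 698.3 in WT-tFCI and 619.3 to 1062 in miKO-tFCI, and 4 of the 9 tested were higher in miKO-tFCI than in WT-tFCI. By group mean, most of the WT-tFCI sum was Fn1 (368.9 CPM, and 205.6 in miKO-tFCI), which was not called between these groups. The highest of these sums was in miKO-tFCI replicate 1, which had the lowest Ccl6 and Ccr1 of its group. That library, the only one of its group in batch 1, also had the lowest sum of border-associated macrophage markers of its group (885.9 CPM, against 1964 and 1778 in replicates 2 and 3). Batch and cell mix cannot be told apart in it. Neutrophil markers summed to 956.5 to 1204 CPM in miKO-tFCI and 523.9 to 575.8 in WT-tFCI, with 5 of 9 higher. The sham sums were 633.7 to 1334 CPM in WT-Sham, whose replicate 1 was the highest of the 12 libraries, and 1079 to 1114 in miKO-Sham. By group mean, most of the sham sums was Csf3r (565.4 CPM in WT-Sham and 763.7 in miKO-Sham). Csf3r averaged 351.7 CPM in WT-tFCI and 260.9 in miKO-tFCI. Every other tested neutrophil marker had its highest group mean in miKO-tFCI. Dendritic cell markers summed to 78.7 to 456.9 CPM in miKO-tFCI and 24.9 to 140.6 in WT-tFCI, with 2 of 7 higher, and to 9.41 to 17.2 CPM over the sham groups. The markers of border-associated macrophages summed to 540.7 to 693.9 CPM in WT-Sham, 1304 to 1652 in miKO-Sham, 660.4 to 985.2 in WT-tFCI and 885.9 to 1964 in miKO-tFCI. Most of these sums was Stab1 (mean of 511.1 CPM in WT-Sham and 1381 in miKO-Sham), and between the sham groups 2 of the 7 markers were higher, Stab1 and Folr2, and 5 not called (median 0.13, against 0.037 over all genes). The 10 microglia markers stayed the most abundant of these lists, with 28350 to 34170 CPM in WT-Sham and 22190 to 27050 in miKO-Sham. They summed to 20770 to 21690 CPM in WT-tFCI and 10350 to 17060 in miKO-tFCI. In miKO-tFCI vs. WT-tFCI 6 were lower and 4 not called. Cx3cr1, of which 1 allele carries CreER in miKO, is among those 6 (-1.84). All 10 were lower in miKO-tFCI than in miKO-Sham (8 without miKO-Sham replicate 1). B cell markers summed to 428.9 to 521.9 CPM in WT-Sham and 187.6 to 204.9 in miKO-tFCI, and mast cell and basophil markers stayed between 0 and 10.3 CPM. The part of these cells in the levels of the 5 genes was not tested.

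Within 100 kb on either side of the cluster, 7 other genes were tested. Wfdc17, 178.2 kb from the start of Ccl5 and the next tested gene beyond Ccl4, is a small secreted protein gene of activated macrophages. It averaged 9.22 ± 9.09 CPM in WT-Sham, 43.0 ± 5.56 in miKO-Sham, 126.7 ± 15.1 in WT-tFCI and 288.5 ± 19.2 in miKO-tFCI. It was higher in miKO than in WT in both surgeries, by 2.38 in sham (edgeR adjusted p = 0.000287, and 2.21 to 2.62 without miKO-Sham replicate 1 or 2 or with them summed) and 1.19 after tFCI (edgeR adjusted p = 0.0253), so that after tFCI Ccl4 was lower and Wfdc17 higher in miKO. Of the other 6 neighbours Mmp28 was lower with tFCI in WT (-1.38) and in miKO-Sham vs. WT-Sham (-2.18), Gas2l2 was higher with tFCI in miKO, and Taf15, Rpl9-ps1, Wfdc21 and Heatr6 were called in no comparison. The calls of Mmp28 and Gas2l2 rest on few counts, at most 46 and 48 in any library. Mmp28 averaged 4.25 CPM in WT-Sham and 0.90 in miKO-Sham. Gas2l2 averaged 0.224 CPM in miKO-Sham and 2.69 ± 1.97 in miKO-tFCI (SD, n = 3).

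**Figure D5:**
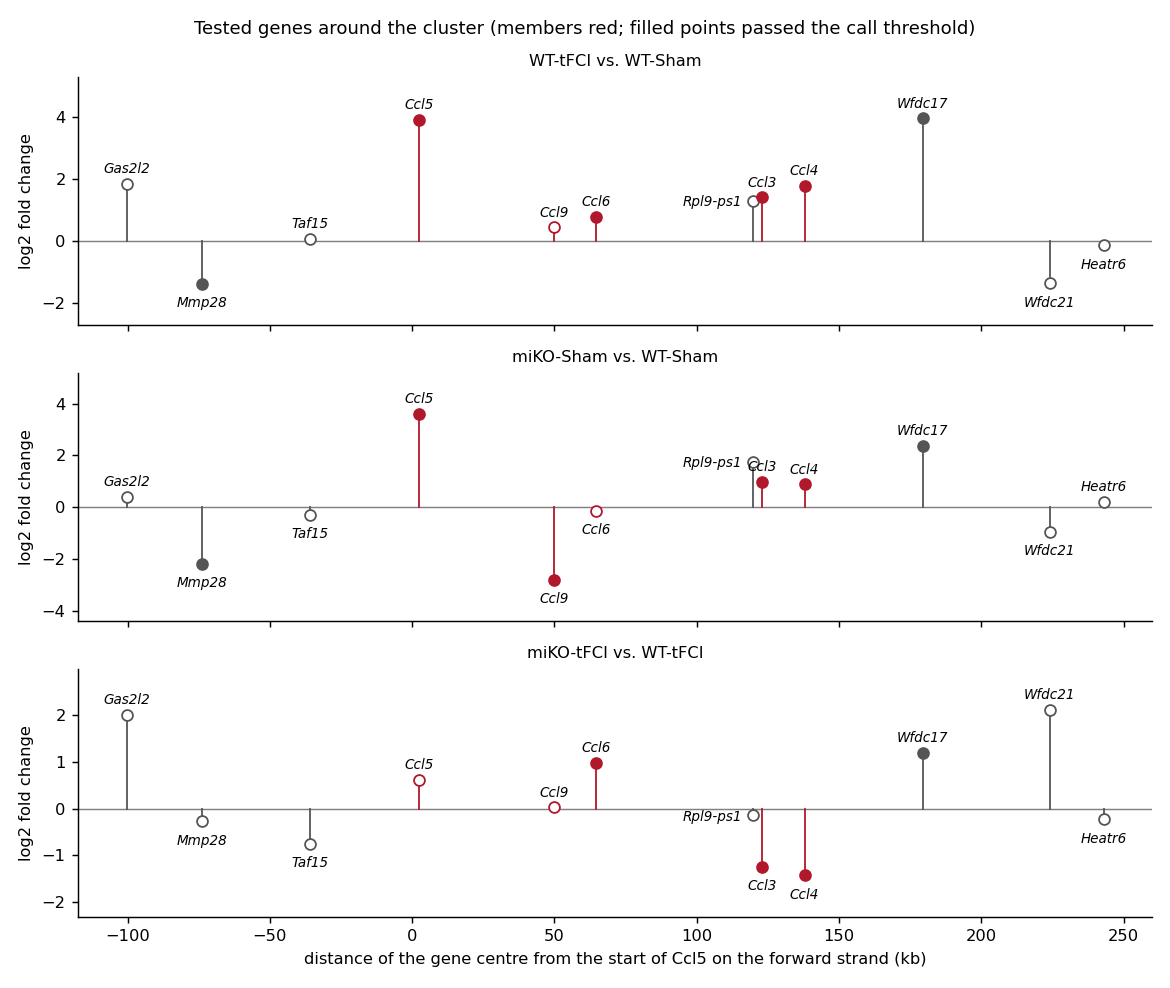
Log2 fold change from edgeR (y axis) of the 12 tested genes in and around the cluster against the distance of each gene's centre from the start of Ccl5 in kb, for 3 comparisons, with the 5 genes in red and filled points past the threshold. In miKO-Sham vs. WT-Sham the neighbours Ccl9 (-2.79) and Ccl6 (-0.14) lie apart, and in miKO-tFCI vs. WT-tFCI Ccl3 and Ccl4 lie below 0 between Ccl6 and Wfdc17, which lie above it.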

How the data were processed

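Sorted microglia RNA of 12 libraries (SMART-Seq v4, paired reads of 150 bases) was analysed. The authors deposited counts per gene without normalization, and the submitters' processing notes name FastQC 0.11.9, Trim Galore, HISAT2 2.2.1, SAMtools and HTSeq 1.99.2 and the builds mm10 and GRCm38.p6. Lines for reads on no gene (61.5% to 69.3% of reads) stayed out of library sizes and tests. GENCODE M21 matched 55141 of 55401 identifiers.

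Genes were kept by filterByExpr of edgeR 4.0.16 in R 4.3.3, scaled by TMM, whose factors lay between 0.864 and 1.11, and entered 1 quasi-likelihood fit with terms for group and sequencing batch. Adjusted p is Benjamini-Hochberg over 16451 genes, an SE is the log2 fold change over the root of F, and intervals are 95%. The steps were tested on simulated data. The methods call the libraries of a group biological replicates. Deviations of same-numbered libraries from their group means correlated at 0.666, 0.334 and 0.324 between miKO-tFCI and WT-tFCI, where the numbers were taken to pair the libraries, and at -0.057 to 0.236 in the other 3 comparisons. This pairing comes from the data, and replicate 1 is also batch 1. The p-values of the main fit do not use it. It entered only the replicate block among the alternatives, over all 4 groups at once.

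The 5 genes and all lists were chosen with earlier results of these data known. From each list at most 6 called genes with the largest changes per comparison and direction were open to naming, with Ccr1, Ccr3, Ackr2 and Hdac3 in any case, the 3 genes most like each member by Pearson's r, and the tested genes within 100 kb. A further receptor gene of the list is not reported here, and the list's counts leave it out. Alternatives were size factors of relative log expression, DESeq2 1.42.0, other filters, no batch term, a replicate block, only the groups compared, batch 2 alone and each library left out. Summing miKO-Sham replicates 1 and 2, and repeating the tests of other genes and lists without either, were added after seeing the data.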

Additional observations from a re-analysis of the deposited data

Results flagged for a closer look

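For 4 of the 5 genes the test of the difference itself found that the response to tFCI was not the same in miKO as in WT, as edgeR's interaction term on the log2 scale. It was -2.22 for Ccl3 and -2.31 for Ccl4, which both rose with tFCI in WT, whereas in miKO Ccl3 fell, a call lost in 6 of 22 alternatives, and Ccl4 changed by -0.56 without being called. It was 2.81 for Ccl9, whose miKO-Sham libraries were low and whose tFCI libraries overlapped between the genotypes. It was -2.97 for Ccl5, which was near 0 in WT-Sham alone, and this last call was lost in 7 of 20 alternatives.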

How the results depend on the processing

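Of 25 results on the 5 genes, 13 kept their direction and their side of the threshold under all alternatives that gave a value for them (22 for 8 of the results and 21 for 5), and of 540 recomputed values 484 did so, 35 lost the call, 13 gained it and 8 changed sign. With DESeq2 the interaction was -2.97 for Ccl5 (no longer called) and 1.13 for Ccl6 (called). With no filter on low counts, in miKO-tFCI vs. miKO-Sham Ccl4 (-0.588) and Ccl5 (0.892) were called and all 5 genes passed, the interaction of Ccl6 (1.10) was called, and Ccl9 in miKO-tFCI vs. WT-tFCI turned to -0.00053. With no batch term, Ccl4 in miKO-Sham vs. WT-Sham (0.875), Ccl6 in miKO-tFCI vs. WT-tFCI (1.02) and the interaction of Ccl5 (-2.83) were lost. With only the groups compared, Ccl5 was called in miKO-tFCI vs. WT-tFCI (0.607). In batch 2 alone, Ccl3 in miKO-tFCI vs. miKO-Sham was lost (-0.533), Ccl6 in miKO-Sham vs. WT-Sham turned to 0.108 and its interaction was called (1.24). With miKO-Sham replicates 1 and 2 summed in batch 1 and in batch 2, Ccl3 was lost in miKO-tFCI vs. miKO-Sham (-0.675 and -0.685), and Ccl3 (0.854 and 0.825) and Ccl4 (0.740 and 0.794) in miKO-Sham vs. WT-Sham, leaving 2 of the 5 called there. In batch 1 Ccl5 was also called in miKO-tFCI vs. miKO-Sham (1.31) and Ccl6 in miKO-Sham vs. WT-Sham turned to 0.0319. The cause of these changes was not tested.

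With each library left out in turn, the ranges in WT-tFCI vs. WT-Sham were 0.513 to 0.976 for Ccl6. In miKO-tFCI vs. miKO-Sham they were -1.07 to -0.589 for Ccl3, -0.79 to -0.37 for Ccl4 and 0.561 to 1.42 for Ccl5, with 2 to 4 genes called. In miKO-Sham vs. WT-Sham they were 0.734 to 1.31 for Ccl3, 0.646 to 1.23 for Ccl4 and -0.375 to 0.0816 for Ccl6, with 2 to 4 genes called. In miKO-tFCI vs. WT-tFCI they were 0.769 to 1.28 for Ccl6 and -0.0904 to 0.244 for Ccl9, whose sign changed without WT-Sham replicate 1 (-0.00837), WT-tFCI replicate 3 (-0.0876) or miKO-tFCI replicate 2 (-0.0469) or 3 (-0.0904). In the interaction they were -3.73 to -2.40 for Ccl5 and 0.855 to 1.40 for Ccl6.

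The replicate block in place of the batch term changed no call of the 5 genes and gave, for Ccl6 in miKO-tFCI vs. WT-tFCI, 0.971. Over all genes the calls in miKO-tFCI vs. WT-tFCI numbered 1446, and 2193 with no filter, 701 with no batch term, 2535 with only the groups compared and 616 to 1667 with a library left out. The interaction gave 629, and 999 with DESeq2, 1272 with no filter, 303 with no batch term, 417 with the summed library in batch 2 and 281 to 883 with a library left out. In miKO-tFCI vs. miKO-Sham 5887 genes were called, and 3744 with at least 10 counts in every library, a filter that leaves out Ccl5. Depth limits Ccl5 in WT-Sham most, where all 3 libraries together hold 30 counts.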
